A study of Mus musculus with 12 samples.

Results

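The NF-κB subunits, their inhibitors and the feedback genes of the pathway were followed in thymocytes with and without MED23, 1 of the subunits of Mediator, a complex that links transcription factors to RNA polymerase II. The members were 9 genes chosen by name, *Nfkbia*, *Nfkbie*, *Nfkb1*, *Nfkb2*, *Rel*, *Relb*, *Bcl3*, *Tnfaip3* and *Traf1*, and every probe set with 1 of these as its only gene symbol was used. The genes were chosen with earlier results of these arrays known. They gave 10 of the 12488 probe sets on the array, for 8 of the 9 genes. *Nfkbia* and *Relb* had 2 probe sets each, and *Nfkb1* was not analysed here because no probe set carried it as a single symbol. A probe set was tested when its mean signal reached 100 in at least 1 of the 6 conditions, which held for 9 of the 10 member probe sets and for 9478 of all probe sets. The exception was *Rel*.

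Total thymocytes came from 6 female mice of 6 to 7 weeks on a C57Bl/6 x 129Sv (F1) background. The MED23 null mice were 2 *Med23flox/flox;Lck-Cre* mice, and the controls were 2 *Med23+/+;Lck-Cre* mice, called *Lck-Cre* below, and 2 *Med23flox/flox* mice, which carried no Cre. In *Med23flox/flox* alleles loxP sites flank part of *Med23*, and the *Lck* promoter drives Cre in the T-cell lineage, so cells that never expressed Cre kept the gene. Cells of each mouse rested for 4 h and were then kept for 3 h either on plate-bound αCD3, an antibody that engages the T-cell receptor complex, or without it (mock). Each mouse gave 1 Affymetrix array per treatment, 12 in all, and mice are numbered 1 and 2 within a genotype. With 2 MED23 null mice, the smallest p that an exact permutation against 4 control mice can reach is 0.0667.

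NF-κB factors are dimers of REL-domain proteins that inhibitors of the IκB family hold in the cytoplasm of resting cells. Signals such as engagement of the T-cell receptor activate the IKK kinase complex, IκB proteins are phosphorylated and degraded, and the freed dimers enter the nucleus and bind κB sites. Several target genes encode inhibitors of the pathway itself, so that their transcripts serve as a readout of its activity. In the thymus the pathway acts in the selection and survival of T cells and in the development of the medulla.

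The promoters below are shown because the genes have κB consensus motifs near their start sites, 3 of them were higher with αCD3 in every mouse, and the last was not. Each line gives the 130 bases before a RefSeq transcription start, 5′ to 3′ on the strand of the gene, in the build GRCm38.p6, with matches to the κB consensus on either strand in capitals. Adjacent or overlapping matches are merged into 1 run of capitals.
Nfkbia (chr12:55492648-55492777, minus strand): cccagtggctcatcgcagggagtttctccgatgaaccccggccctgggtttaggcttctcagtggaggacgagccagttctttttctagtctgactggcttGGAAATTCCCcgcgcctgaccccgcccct
Nfkb2 (chr19:46304607-46304736, plus strand): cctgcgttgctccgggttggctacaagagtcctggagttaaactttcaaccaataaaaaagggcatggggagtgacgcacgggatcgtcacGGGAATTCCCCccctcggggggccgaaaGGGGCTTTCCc
Tnfaip3 (chr10:19015411-19015540, minus strand): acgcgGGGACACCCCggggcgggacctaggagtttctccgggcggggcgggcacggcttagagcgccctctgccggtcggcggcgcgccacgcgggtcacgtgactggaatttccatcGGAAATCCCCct
Nfkbie (chr17:45555570-45555699, plus strand): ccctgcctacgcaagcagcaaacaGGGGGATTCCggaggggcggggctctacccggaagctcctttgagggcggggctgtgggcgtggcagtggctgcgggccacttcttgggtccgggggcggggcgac

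The κB consensus, a motif of 10 bases, was searched on both strands in the 250 bases before each start. RefSeq windows were at hand for 7 of the 8 measured genes, and 5 of these 7 held a match, namely *Nfkbia*, *Nfkbie*, *Nfkb2*, *Rel* and *Tnfaip3*, against 8.23% of 27025 genes with a window. The measured gene without a window was *Relb*. *Bcl3* and *Traf1* had no match in their windows, nor did *Tnfaip3* in its second window. In *Nfkbia* the match GGGAATTTCC lay 29 to 20 bases before the start on the opposite strand. In *Tnfaip3* the match GGGGATTTCC lay 12 to 3 bases before the start, also on the opposite strand. In *Nfkb2*, which has several start sites, GGGAATTCCC and GGGGCTTTCC lay within 39 bases of the first start with a window here, which is not the 5′ end of the gene. In *Nfkbie* the match GGGGGATTCC lay 106 to 97 bases before the start. A match describes letters in a window and was not tested as a binding site.

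In response to αCD3, transcripts of the inhibitor *Nfkbia*, the feedback gene *Tnfaip3* and, at 1 of its 2 probe sets (103091_at), the subunit gene *Relb* were higher in all 6 mice, with no overlap between the αCD3 and the mock arrays. Of these, *Relb* 103091_at passed the test across all probe sets, at 2.43 ± 0.670-fold (SD, n = 6 mice), a call that was lost when any 1 mouse was left out and when the variance was allowed to follow the mean signal. *Nfkb2* was also higher in 6 of 6 mice, by amounts that differed widely, while the inhibitor *Nfkbie* was lower in 5 of 6 mice. Between MED23 null and control thymocytes no member probe set passed the test in mock cells, in αCD3-treated cells or in induction. The lowest unadjusted p values were at the other *Relb* probe set, 162372_f_at, which was dim and entered the test only through its control αCD3 arrays.

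The arrays bear on these results in several ways. The thymocyte markers were at a mean signal of at least 100 for 9 of 9 measured genes, and summed to 78311 to 80353 in MED23 null and 81334 to 83540 in control αCD3 arrays, and to 75447 to 80752 in MED23 null and 88026 to 94796 in control mock arrays. Markers of mature single positive thymocytes, 6 of 7 listed genes measured, summed to 3101 to 3355 in MED23 null and 5753 to 7009 in control αCD3 arrays, and to 3142 to 3313 in MED23 null and 6275 to 8295 in control mock arrays. The myeloid and dendritic cell markers summed to 1830 to 2026 in MED23 null and 1626 to 1718 in control αCD3 arrays, with *Itgam* and *Emr1* under 100, and in mock cells to 1818 to 1850 in MED23 null and 1407 to 1726 in control arrays. The B-cell markers overlapped between the genotypes after αCD3 (1902 to 1904 in MED23 null, 1622 to 2661 in control), as did those of thymic epithelial cells (209 to 272 in MED23 null, 235 to 319 in control). Of these genes *Cd22*, *Krt5*, *Krt8* and *Epcam* had means under 100 after αCD3, as did *Klf2* of the mature markers. The red cell markers, 2 genes, summed to 15652 to 38196 in MED23 null and 6114 to 15245 in control αCD3 arrays. In mock arrays their sums overlapped, at 14711 to 37029 in MED23 null and 6153 to 16590 in control. The part of other cells in the member signals was not tested, and on arrays of total thymocytes fewer cells of a type and less RNA per cell cannot be told apart. Within the thymocyte and the myeloid and dendritic sums, genes differed in direction between MED23 null and control αCD3 arrays. Mean *Cd4* was 4443 in MED23 null and 3947 in control, while mean *Cd8a* was 8085 and 9083. Mean *Cd14* was 817.5 in MED23 null and 639.2 in control, while mean *Lyz2* was 194.1 and 237.9. The mature single positive markers include *Klf2*, *S1pr1* and *Cd52*. By flow cytometry the study found thymic subsets in normal proportions in MED23 null mice. It also reported lower *Klf2* and *Cd52* transcripts in isolated MED23 null CD4 single positive thymocytes. The *Med23* probe set read 207 to 268 on the 4 MED23 null arrays and 288 to 489 on the 8 control arrays, and its probes were not placed relative to the deleted exons. The 3′ to 5′ signal ratio of β-actin, a measure of RNA integrity, was 1.90 and 1.61 on the MED23 null αCD3 arrays and 1.35 to 1.41 on the control αCD3 arrays, and 1.44 and 1.63 on the MED23 null mock arrays and 1.35 to 1.6 on the control mock arrays. That of *Gapdh* was 0.636 and 0.766 on the MED23 null αCD3 arrays and 0.599 to 0.648 on the control αCD3 arrays. The αCD3 array of *Med23flox/flox* mouse 1 stood apart, with a lower quartile of signal of 85.3 against 50.02 to 58.4 on the other 11 arrays and a mean correlation with them of 0.904. For *Nfkb2*, several log2 differences below are also given without that mouse.

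*Nfkbia* encodes IκBα, the inhibitor that is degraded first after receptor signals and resynthesised under NF-κB control. The gene lies at chr12:55489409-55492647 (GRCm38.p6). Its brighter probe set, 101554_at, had αCD3 signals of 4965 and 5398 in MED23 null mice 1 and 2, 5075 and 4804 in *Lck-Cre* mice and 4983 and 7122 in *Med23flox/flox* mice. The mock signals of the same mice were 2884 and 3093 in MED23 null, 2970 and 3829 in *Lck-Cre* and 3261 and 4592 in *Med23flox/flox* mice. Every αCD3 array lay above every mock array, and *Med23flox/flox* mouse 2 was the highest in both treatments. Within mice the ratio of αCD3 over mock was 1.73 ± 0.0169 in MED23 null (SD, n = 2) and 1.51 ± 0.189 in control mice (SD, n = 4). Over the 6 mice the log2 difference was 0.65 (standard error 0.10), with an adjusted p of 0.0544 from limma, just over the threshold of 0.05. Log2 differences here and below are of the signal plus 50, a scale that understates the change of dim probe sets.

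The other *Nfkbia* probe set, 104149_at, gave αCD3 signals of 1485 and 1151 in MED23 null, 1423 and 1287 in *Lck-Cre* and 1427 and 1643 in *Med23flox/flox* mice. Mock signals were 897.9 and 803 in MED23 null, 1020 and 957.5 in *Lck-Cre* and 953 and 1014 in *Med23flox/flox* mice. Again all αCD3 arrays lay above all mock arrays. The ratio was 1.54 ± 0.156 in MED23 null (SD, n = 2) and 1.46 ± 0.122 in control mice (SD, n = 4), and the log2 difference over 6 mice was 0.55 (standard error 0.09, limma adjusted p = 0.0618). Over the 12 arrays the 2 *Nfkbia* probe sets correlated at r = 0.863 on the log2 scale, a description over arrays that share treatments and mice.

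*Nfkbie* encodes IκBε, a second inhibitor of the same family, and lies at chr17:45555700-45563169. Its αCD3 signals were 382.3 and 71.8 in MED23 null, 117.2 and 264.6 in *Lck-Cre* and 188.2 and 115.9 in *Med23flox/flox* mice. Mock signals were 365.8 and 287.1 in MED23 null, 389.1 and 268.1 in *Lck-Cre* and 329.6 and 217.3 in *Med23flox/flox* mice. The αCD3 signal was lower than mock in 5 of 6 mice, and in MED23 null mouse 1 and *Lck-Cre* mouse 2 the ratios were 1.04 and 0.987. In MED23 null mouse 2 and *Lck-Cre* mouse 1 they were 0.25 and 0.301. The MED23 null mice thus held both the highest and the lowest ratio of all mice. The log2 difference over 6 mice was -0.70 (standard error 0.23, limma adjusted p = 0.485), opposite in sign to that of *Nfkbia*.

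*Tnfaip3* encodes A20, a ubiquitin-editing enzyme that ends NF-κB signalling, and lies at chr10:19000910-19015410. Signals after αCD3 were 2059 and 1616 in MED23 null, 2506 and 1939 in *Lck-Cre* and 1966 and 1806 in *Med23flox/flox* mice. Mock signals were 1120 and 1354 in MED23 null, 1170 and 1302 in *Lck-Cre* and 1195 and 1199 in *Med23flox/flox* mice. The lowest αCD3 array, of MED23 null mouse 2, still lay above the highest mock array, which was of the same mouse. The ratio was 1.52 ± 0.455 in MED23 null (SD, n = 2) and 1.70 ± 0.306 in control mice (SD, n = 4), and the log2 difference over 6 mice was 0.66 (standard error 0.12, limma adjusted p = 0.0942).

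*Traf1*, at chr2:34941750-34961812, encodes an adaptor of tumour necrosis factor receptors and is a known NF-κB target. After αCD3 it read 106.3 and 124.1 in MED23 null, 196.4 and 204.8 in *Lck-Cre* and 86.3 and 157.9 in *Med23flox/flox* mice. Mock signals were 54.5 and 131.3 in MED23 null, 117.5 and 57.6 in *Lck-Cre* and 53 and 288.3 in *Med23flox/flox* mice. The highest signal of all was a mock array, of *Med23flox/flox* mouse 2, and the ratio exceeded 1 in 4 of 6 mice. The log2 difference of 0.34 (standard error 0.23, limma adjusted p = 0.783) was within the spread between mice.

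Among the subunit genes, *Relb*, at chr7:19606217-19629438, encodes the partner of p52 in the non-canonical dimer. Its brighter probe set, 103091_at, had αCD3 signals of 669.1 and 394.4 in MED23 null, 641.6 and 512.9 in *Lck-Cre* and 548.1 and 606.8 in *Med23flox/flox* mice. Mock signals were 300.1 and 228.3 in MED23 null, 189.1 and 167.7 in *Lck-Cre* and 231 and 334.9 in *Med23flox/flox* mice. All αCD3 arrays lay above all mock arrays, and both *Lck-Cre* mice were at the low end of mock. The ratio was 1.98 ± 0.355 in MED23 null (SD, n = 2) and 2.66 ± 0.707 in control mice (SD, n = 4). Over 6 mice the log2 difference was 1.08 (standard error 0.14) with a limma adjusted p of 0.0269. This call was lost when any 1 of the 6 mice was left out, with adjusted p of 0.0515 to 0.133, and when the variance was allowed to follow the mean signal (adjusted p = 0.153), while its log2 difference stayed between 0.96 and 1.18.

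The second *Relb* probe set, 162372_f_at, read the gene differently. Its αCD3 signals were 22 and 30.6 in MED23 null, 82.5 and 180.2 in *Lck-Cre* and 190.2 and 208.4 in *Med23flox/flox* mice. Mock signals were 80.8 and 21.8 in MED23 null, 24.9 and 33.5 in *Lck-Cre* and 33.4 and 25.9 in *Med23flox/flox* mice. In control mice every αCD3 array was above every mock array, whereas the MED23 null αCD3 arrays were within the range of the mock arrays. The control mock signals and both MED23 null αCD3 signals lay under the lower quartile of their arrays, so no ratio is given. This probe set reached the signal filter only through the control αCD3 arrays, so it could enter the test only by being high there. The suffix _f_at marks a probe set whose probes may also match related sequences. In the fit its log2 difference was 1.39 in control (standard error 0.22, limma adjusted p = 0.101) and -0.35 in MED23 null mice (standard error 0.31, limma adjusted p = 0.999).

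*Nfkb2*, at chr19:46300994-46312400, encodes p100, which is at once an inhibitor and the precursor of p52. The study listed *Nfkb2* by its fold change with αCD3 in control thymocytes of these same arrays, so its higher αCD3 signal is not independent evidence. That criterion also differs from the test used here. Its αCD3 signals were 530.4 and 545.5 in MED23 null, 590.4 and 749.5 in *Lck-Cre* and 1135 and 640 in *Med23flox/flox* mice. Mock signals were 386.6 and 538 in MED23 null, 417.1 and 479.2 in *Lck-Cre* and 266.3 and 410.1 in *Med23flox/flox* mice. Both MED23 null αCD3 arrays lay below the 4 control αCD3 arrays, and MED23 null mouse 2 was the highest in mock. The ratios were 1.37 and 1.01 in MED23 null, 1.42 and 1.56 in *Lck-Cre* and 4.26 and 1.56 in *Med23flox/flox* mice, so that *Med23flox/flox* mouse 1, with the αCD3 array that stands apart, was far above the others. Over 6 mice the log2 difference was 0.66 (standard error 0.23, limma adjusted p = 0.503), and without that mouse it was 0.41.

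*Rel*, at chr11:23736847-23770969, encodes c-Rel, a subunit of lymphocytes. It had αCD3 signals of 48.6 and 16.7 in MED23 null, 115.4 and 59.7 in *Lck-Cre* and 90.5 and 100.9 in *Med23flox/flox* mice. Mock signals were 15.7 and 14.8 in MED23 null, 34.1 and 54 in *Lck-Cre* and 85.1 and 11.3 in *Med23flox/flox* mice. The αCD3 signal was the higher in 6 of 6 mice, but 3 of these ratios were 1.06 to 1.13 and the condition means, 15.2 to 95.7, were all under the filter, so *Rel* had no test in the fit across probe sets. *Bcl3*, at chr7:19808462-19822824, encodes a nuclear IκB-like protein that binds p50 and p52 dimers. With αCD3 it read 97.3 and 99.4 in MED23 null, 135.9 and 92.7 in *Lck-Cre* and 141.7 and 105.4 in *Med23flox/flox* mice. Its mock signals were 114.2 and 83.7 in MED23 null, 107.4 and 56.6 in *Lck-Cre* and 107.7 and 79.6 in *Med23flox/flox* mice. The ratio exceeded 1 in the 4 control mice and in MED23 null mouse 2. *Bcl3* also reached the filter only through control αCD3 arrays, and its log2 difference over 6 mice was 0.20 (standard error 0.10, limma adjusted p = 0.707).

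**Figure D1:**
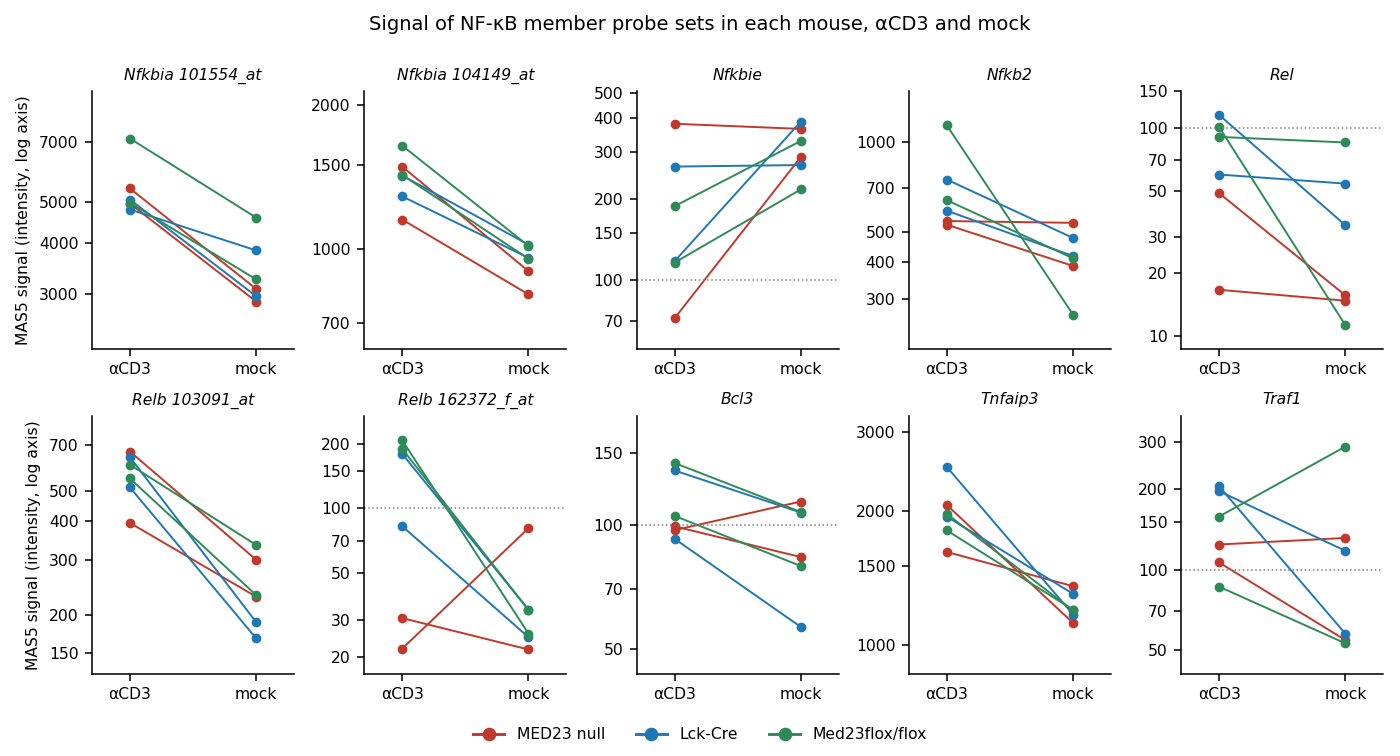
Signals of the 10 member probe sets (intensity, log axis, its range set per panel) in αCD3 (left) and mock (right), with 1 line per mouse coloured by genotype and the filter level of 100 dotted. Lines fall from left to right in all 6 mice for *Nfkbia*, *Tnfaip3*, *Nfkb2*, *Rel* and *Relb* 103091_at, while *Relb* 162372_f_at does so in the 4 control mice and MED23 null mouse 2.

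Counted over the members, 1 of 9 tested probe sets rose with αCD3 at an adjusted p under 0.05 over all 6 mice, against 0.327% of the 9478 tested, and none fell, against 0.0317%. At an unadjusted p under 0.05 there were 6 of 9 higher, against 4.98% of all tested, and 1 of 9 lower, *Nfkbie*, against 2.77%. Of the 6, *Relb* 162372_f_at had entered the test only through αCD3 arrays. The members were chosen with earlier results of these arrays known, *Nfkbia* and *Relb* count with 2 probe sets each, and *Nfkb2* was on the study's list. The counts in this paragraph are therefore descriptions. Within control mice alone no member passed the adjusted threshold in limma, against 0.148% of probe sets that rose, and within MED23 null mice none passed, against 0.0317%. At an unadjusted p under 0.05 the counts were 4 of 9 higher in MED23 null mice, against 2.53%, and 7 of 9 higher in control mice, against 5.41%. Of the 7 in control mice, *Relb* 162372_f_at and *Bcl3* had entered the test only through the control αCD3 arrays and had to be high there. Higher αCD3 than mock signal in 6 of 6 mice was seen for 5 of 9 members, against 3.61% of all tested. With 6 of 6 higher, the unadjusted p of an exact two-sided sign-flip permutation test is always its smallest possible, 0.03125. That p therefore adds nothing to the count. All 6 αCD3 arrays lay above all 6 mock arrays for 4 of 9 members, against 0.707% of all tested. These 4 probe sets, both of *Nfkbia* and 1 each of *Relb* and *Tnfaip3*, reached the signal filter in all 6 conditions, mock included. The median log2 difference was 0.65 over the 9 members and -0.01 over all tested, and 2 of the 9 entered only through αCD3 arrays.

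**Figure D2:**
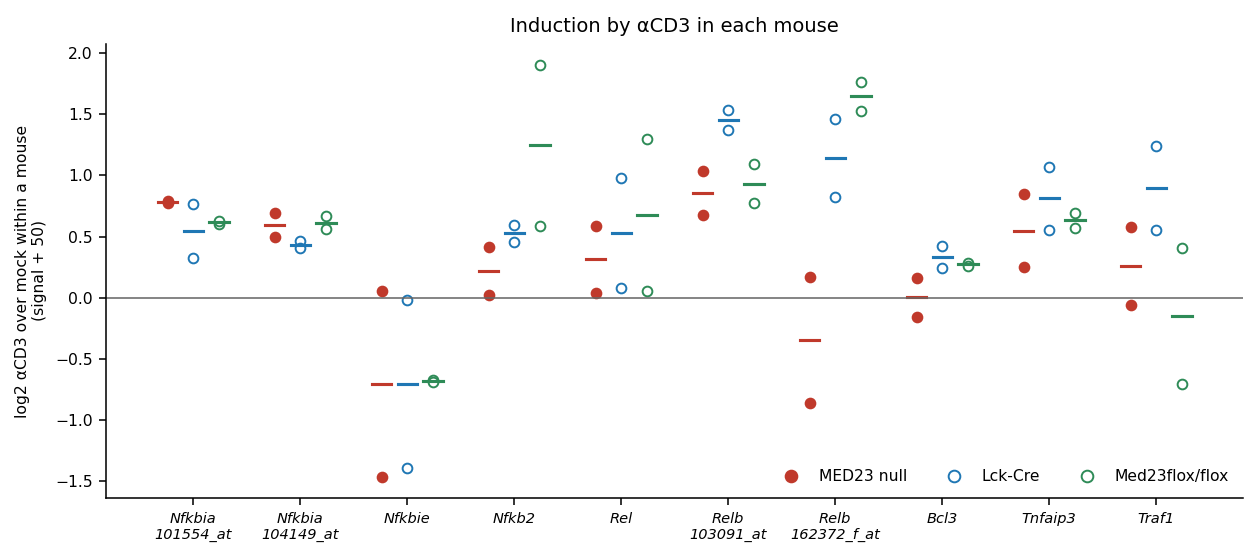
Log2 difference of αCD3 over mock (signal plus 50) within each mouse for the 10 member probe sets, with MED23 null mice filled and at the left, control genotypes open, and bars at the genotype means. Both MED23 null mice lie below all 4 control mice for *Nfkb2*, *Bcl3* and *Relb* 162372_f_at and above them for *Nfkbia* 101554_at.

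MED23 null thymocytes were then set against both control genotypes together. In αCD3-treated cells, in mock cells and in induction, 0 of 9 member probe sets passed in limma, as did 0% of all 9478 tested in each of the 3. At an unadjusted p under 0.05 there were 1 of 9 after αCD3, against 6.16% of all tested, 0 of 9 in mock, against 7.4%, and 1 of 9 in induction, against 5.13%. The probe set was *Relb* 162372_f_at both times. Since it entered the test only through its control αCD3 arrays, its differences are descriptions and its p is no support. Its αCD3 difference was -1.45 on the log2 scale (95% interval -2.16 to -0.75, limma adjusted p = 0.493), and its difference in induction was -1.74 (95% interval -2.66 to -0.83, limma adjusted p = 0.809). At *Relb* 103091_at the αCD3 difference was -0.15 (95% interval -0.70 to 0.41) and the difference in induction -0.33 (95% interval -1.002 to 0.33). Both intervals reach 0, and the sign of the αCD3 difference depended on which mouse was left out.

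For *Nfkb2* the αCD3 difference was -0.45 (95% interval -1.10 to 0.19, limma adjusted p = 0.903), and without *Med23flox/flox* mouse 1 it was -0.27. Its difference in induction was -0.67 (95% interval -1.73 to 0.39, limma adjusted p = 1), which became -0.33 without that mouse. The intervals reach 0 in both cases. For *Nfkbia* the difference in induction was 0.20 at 101554_at (95% interval -0.30 to 0.71) and 0.07 at 104149_at (95% interval -0.41 to 0.55). For *Tnfaip3* it was -0.17 (95% interval -0.82 to 0.47). The intervals were widest for *Traf1* (-1.36 to 1.13) and *Nfkbie* (-1.25 to 1.22), whose values varied most within genotypes. Other measures given above also separated the MED23 null from the control αCD3 arrays without overlap, as *Nfkb2* and *Relb* 162372_f_at did. They were the β-actin ratio and the summed markers of thymocytes, mature single positive thymocytes, myeloid and dendritic cells and red cells. Genes within the thymocyte and the myeloid and dendritic sums differed in direction, and the part of these measures was not tested.

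**Figure D3:**
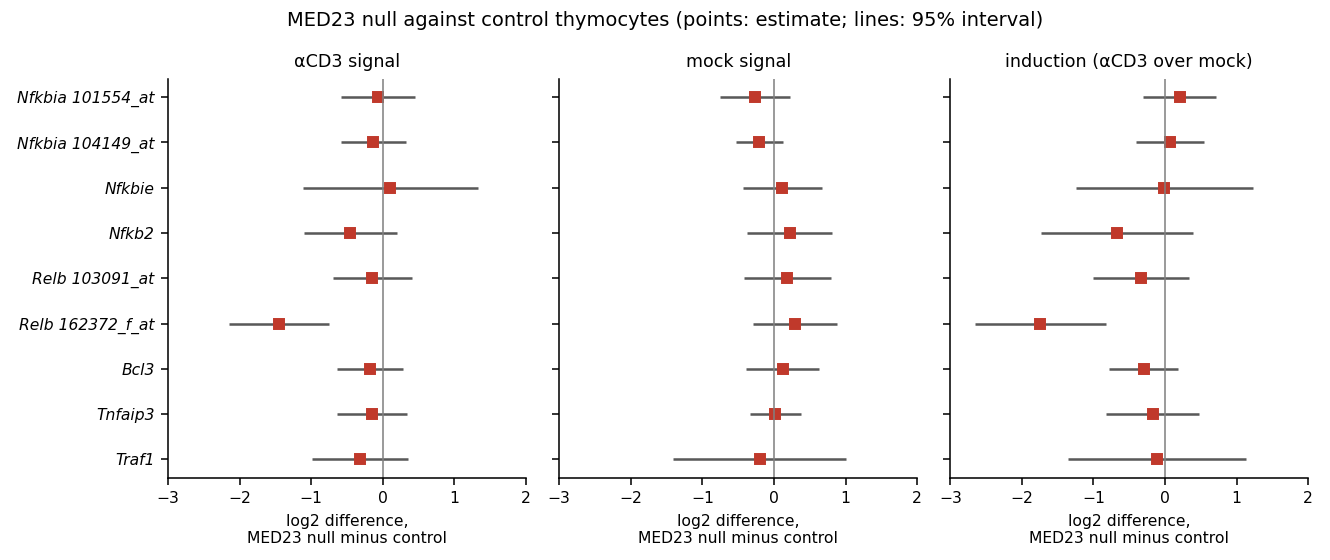
Log2 difference of MED23 null minus control thymocytes in αCD3 signal, mock signal and induction for the 9 tested member probe sets, with squares for the limma estimate and lines for its 95% interval. Only the lines of *Relb* 162372_f_at, in αCD3 signal (-2.16 to -0.75) and in induction (-2.66 to -0.83), do not reach 0, and this probe set entered the test only through its control αCD3 arrays.

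By ranges, both MED23 null αCD3 signals lay below all 4 control signals for 2 of 9 members, *Nfkb2* and *Relb* 162372_f_at, against 8.61% of all tested, and above them for 0 of 9, against 6.9%. In mock cells 1 of 9 lay below, *Nfkbia* 104149_at, against 8.44%, and 0 of 9 above, against 9.27%. In induction 3 of 9 lay below, *Nfkb2*, *Bcl3* and *Relb* 162372_f_at, against 7.42%, and 1 of 9 above, *Nfkbia* 101554_at, against 6.06%. Of the 3 that lay below, *Bcl3* and *Relb* 162372_f_at could be tested only because their control αCD3 signals were high, and *Nfkb2* was on the study's list. The exact two-sided permutation p for the difference in means was 0.333 for *Nfkb2* and 0.2 for *Nfkbia* 101554_at in induction.

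Each control genotype was also compared alone, with 2 mice against 2. In these 6 comparisons 0 of 9 members passed in limma, as did 0% of all tested in each. *Relb* 162372_f_at had a log2 difference in αCD3-treated cells of -1.20 against *Lck-Cre* (95% interval -1.94 to -0.46, limma adjusted p = 0.755) and -1.71 against *Med23flox/flox* (95% interval -2.45 to -0.97, limma adjusted p = 0.455). In mock cells no member had an unadjusted p under 0.05 against either genotype, against 7.3% of all tested for *Lck-Cre* and 7.34% for *Med23flox/flox*. After αCD3 and in induction 1 member had one in each comparison, again *Relb* 162372_f_at with the limit given above, against 4.32% to 7.72% of all tested. For *Nfkb2* the difference in induction was -0.31 against *Lck-Cre* (95% interval -1.47 to 0.85) and -1.03 against *Med23flox/flox* (95% interval -2.19 to 0.13), and the 2 estimates share the MED23 null mice. Without *Med23flox/flox* mouse 1 the *Nfkb2* difference against *Med23flox/flox* was -0.37 in induction. For *Relb* 103091_at they were -0.59 (95% interval -1.27 to 0.08) and -0.07 (95% interval -0.75 to 0.60).

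Other genes of the pathway were counted from lists by role, also chosen with earlier results of these arrays known. Of the other subunit and IκB-family genes, 3 of 5 were measured and tested, and 1 rose and 0 fell over 6 mice, against 0.327% and 0.0317% of all tested. *Nfkbiz*, which encodes the nuclear IκBζ and was also on the study's list, rose with αCD3 with signals of 256 and 288 in MED23 null, 368.4 and 417.3 in *Lck-Cre* and 358.1 and 442.2 in *Med23flox/flox* mice. Its mock signals were 171.2 and 143.7 in MED23 null, 138.1 and 152 in *Lck-Cre* and 190.8 and 141.3 in *Med23flox/flox* mice. The treatments did not overlap and the MED23 null αCD3 arrays were the lowest of the 6. The log2 difference over 6 mice was 0.96 (standard error 0.14, limma adjusted p = 0.0432), and the MED23 null minus control difference after αCD3 was -0.47 (limma adjusted p = 0.76). The log2 difference was 0.23 for *Nfkbib*, which encodes IκBβ, and 0.03 for *Rela*, which encodes the p65 subunit, and neither passed.

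Of the IKK complex, adaptors and regulators, 15 of 24 genes were tested and 0 passed in either direction in limma, against 0.327% of all tested that rose and 0.0317% that fell. At an unadjusted p under 0.05 there were 3, against 7.75%, with a median log2 difference of 0.03. The 3 with the largest differences were *Birc3*, a ubiquitin ligase of receptor complexes (0.76, limma adjusted p = 0.0544), *Bcl10*, which links the T-cell receptor to IKK (0.47, limma adjusted p = 0.252), and *Tnip1*, a partner of A20 (0.28, limma adjusted p = 0.509). Each was higher with αCD3 in 6 of 6 mice, as were 3.61% of all tested. For *Tnip1* in *Lck-Cre* mouse 2 the signals were nearly equal, at 1459 with αCD3 and 1456 in mock. Of 28 known NF-κB targets, 24 were measured, 20 tested and 5 rose, 0 fell, against 0.327% and 0.0317% of all tested, with a median log2 difference of 0.43 against -0.01 over all tested. The chemokine genes *Ccl4* and *Ccl3* rose by 2.68 (limma adjusted p = 0.000242) and 1.98 (limma adjusted p = 0.0326), and the cytokine gene *Tnf* by 2.13 (limma adjusted p = 0.0121). The transcription factor genes *Irf1* and *Myc*, both on the study's list, rose by 1.37 and 1.25 (limma adjusted p = 0.0224 and 0.0121), while *Irf4*, at 2.00, had an adjusted p of 0.0586. *Ccl4* was the only listed gene that passed within control mice and within MED23 null mice, with log2 differences of 2.51 in MED23 null and 2.76 in control mice. *Ccl4* and *Irf4* reached the signal filter only through αCD3 arrays, so they could enter the test only by being high there. Between MED23 null and control thymocytes 0 of the 38 listed genes tested passed in limma, and at an unadjusted p under 0.05 there were 2 after αCD3, *Nfkbiz* and *Tnfrsf4*, against 6.16% of all tested, 2 in mock, *Ikbke* and *Tnfrsf4*, against 7.4%, and 0 in induction, against 5.13%. *Tnfrsf4*, which encodes the costimulatory receptor OX40, and *Ikbke*, a kinase gene, are named after their values were seen. *Tnfrsf4* read 78.1 and 70.6 in MED23 null, 244.5 and 241.2 in *Lck-Cre* and 261.1 and 312 in *Med23flox/flox* αCD3 arrays. Both MED23 null signals lay below all 4 control signals, as did those of 8.61% of all tested. The difference of -1.34 (standard error 0.18, limma adjusted p = 0.394) did not pass, and both MED23 null signals were under the filter level. *Tnfrsf4* reached the filter only through control arrays, so its differences are descriptions and its p is no support. Leaving out 1 mouse ended the call of *Nfkbiz* in each case (adjusted p of 0.0531 to 0.195), and those of *Irf1*, *Ccl3* and *Myc* in 5, 5 and 4 of the 6 cases, while *Tnf* lost it without *Lck-Cre* mouse 2 (0.0671) or *Med23flox/flox* mouse 2 (0.0622).

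**Figure D4:**
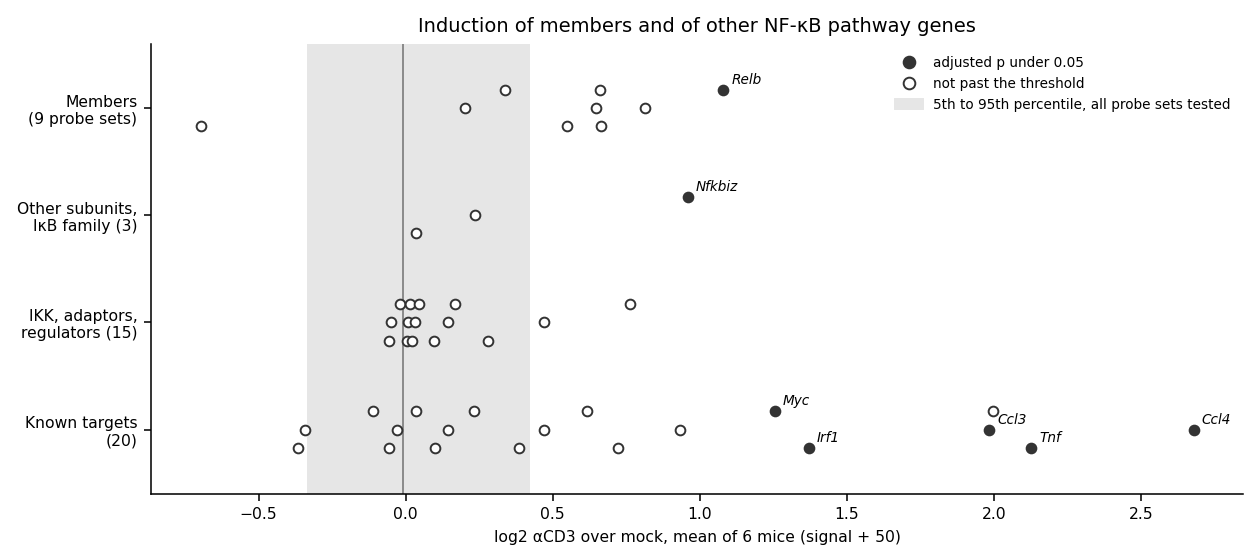
Log2 difference of αCD3 over mock (mean of 6 mice, signal plus 50) for the 9 tested member probe sets and the genes of 3 pathway lists, filled where the limma adjusted p was under 0.05, with the 5th to 95th percentile of all tested probe sets (-0.33 to 0.42) in grey. Filled points are *Relb*, *Nfkbiz* and 5 known targets, and the kinase and adaptor genes lie mostly within the grey band.

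The probe sets whose signals followed the members most closely over the 12 arrays were ranked by Pearson's r on the log2 scale among 8370 tested probe sets with 1 symbol. For *Nfkb2* they were *Nr4a2* (r = 0.937), *Gm7775* (r = 0.911) and *Wnt3a* (r = 0.892). For *Nfkbia* 101554_at they were *Hccs* (r = 0.953), *Wdr43* (r = 0.941) and *Lmna* (r = 0.933). The arrays share treatments and mice, and the values are descriptions. They include the αCD3 array of *Med23flox/flox* mouse 1, on which *Nfkb2* was highest, and were not computed without it. Among the members, *Relb* 103091_at correlated with *Nfkbia* 104149_at at r = 0.889 and with *Tnfaip3* at r = 0.870, *Nfkbie* correlated with *Nfkbia* 101554_at at r = -0.739, and the 2 *Relb* probe sets correlated with each other at r = 0.581.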

How the data were processed

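MAS5 gave the authors 1 intensity per probe set, not on a log scale, and these deposited intensities of 12 Affymetrix Murine Genome U74A Version 2 arrays were used. The MAS5 version is not given in the sources used here. Arrays were scaled to the mock array of *Lck-Cre* mouse 1 by a mean with 2% trimmed at each end, which changed no array by more than 0.00603%. The 66 control probe sets among 12488 were dropped, and a mean signal of 100 in at least 1 of 6 conditions was required. Detection calls were not used. The number of arrays limits the precision, since arrays give no read depth.

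Signals plus 50 were taken to the log2 scale and fitted with limma 3.58.1 in R 4.3.3 (lmFit and eBayes) in 12 comparisons, each with Benjamini-Hochberg adjustment over the 9478 tested probe sets and a threshold of 0.05. Induction was the αCD3 minus mock difference within a mouse. The labels give the mouse of each array, which pairs the treatments. The deviations of the paired arrays from their group means correlated at 0.061 to 0.149. Equal replicate numbers in different genotypes name different mice. Calls were tested on simulated data with normally distributed noise and no array that stood apart. The simulation therefore does not show how calls fare with such an array. Exact permutation tests and figures used Python 3.11.15 with numpy 2.4.6, pandas 2.3.3 and matplotlib 3.10.9. There were 15 alternative settings.

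Gene symbols come from the platform annotation, in which 10855 probe sets have 1 symbol, 10839 of them matched by Entrez ID to GRCm38.p6, 396 several and 1237 none. Promoter windows and gene positions are from RefSeq (GRCm38.p6). The genes named are all members, and from each pathway list the genes that passed the test and the 3 with the largest difference, each by its brightest probe set. Members, lists and motif were chosen with earlier results of these data known.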

Additional observations from a re-analysis of the deposited data

Results flagged for a closer look

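A gap between 1 mouse and the others was looked for in 40 groups of values of the member probe sets, and chance alone gives such a gap in about 1 of 20 groups. It was found 3 times. *Nfkbia* 101554_at had an αCD3 signal of 7122 in *Med23flox/flox* mouse 2, against 4804 to 5075 in the other 3 control mice. *Nfkb2* had a log2 difference of αCD3 over mock of 1.91 in *Med23flox/flox* mouse 1, against 0.46 to 0.60 in the other 3 control mice and 0.02 to 0.60 in the other 5 of all 6 mice, which made it stand apart in both groups. The αCD3 array of that mouse also differed from all other arrays in its lower quartile.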

How the results depend on the processing

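The count of members that rose with αCD3 over 6 mice was 1 as reported, 3 with a pseudocount of 100, 3 with a signal filter of 200 (both *Nfkbia* probe sets and *Relb* 103091_at each time), 2 with quantile normalization (*Nfkbia* 101554_at and *Relb* 103091_at) and 0 with a variance trend. It was 0 in each case when 1 of the 6 mice was left out. The mouse pairs the arrays, and without a replicate block for it the count was 3 (*Relb* 103091_at, *Nfkbia* 104149_at and *Tnfaip3*, with limma adjusted p of 0.0146, 0.0327 and 0.0237). In control mice the count of 0 became 1 with a pseudocount of 100, 1 with a filter of 200 and 2 without a replicate block. With the replicate number as a replicate block between genotypes, which only shares a number, 0 members passed, as in all other settings for the genotype comparisons. Of the pathway lists, the other subunit and IκB-family genes had 1 call as reported (*Nfkbiz*), 0 with no signal filter, 0 with a variance trend and 0 without any 1 mouse. The 0 calls among IKK genes, adaptors and regulators became 1 (*Birc3*) with a pseudocount of 100, a filter of 200 or no replicate block. The 5 known targets became 2 with a variance trend and 1 to 4 with a mouse left out. *Ccl4*, which entered the reported test only through αCD3 arrays, was called in every setting.

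Members without overlap between MED23 null and control mice numbered 1 to 5 in mock signal, 2 to 6 in αCD3 signal and 4 to 7 in induction with a mouse left out, 2 in induction with quantile normalization, and 1 in αCD3 signal and 2 in induction with a filter of 200. The counts of 5, 6 and 7 came from leaving 1 MED23 null mouse to compare. Of all tested, 17.7%, 15.5% and 13.5% did not overlap as reported, against 39% to 44.9% with 1 MED23 null mouse left out, 18.3% to 27% with 1 control mouse left out, 13.2% in induction with quantile normalization, and 16.4% in αCD3 signal and 13.3% in induction with a filter of 200. No member's log2 difference over all 6 mice or in control mice changed sign in any setting, and of the named list genes *Rela* did, at -0.0226 to 0.11 with a mouse left out. In the 9 genotype comparisons 43 of 81 estimates did so at least once, none of them past the threshold.

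Within MED23 null mice, leaving out 1 of them gave log2 differences of -1.47 to 0.0562 for *Nfkbie*, -0.86 to 0.17 for *Relb* 162372_f_at, -0.16 to 0.16 for *Bcl3* and -0.0585 to 0.58 for *Traf1*, and a pseudocount of 100 gave -0.000135 for *Bcl3*. For MED23 null minus control with a mouse left out, *Tnfaip3* ranged from -0.48 to 0.13 in induction, -0.11 to 0.15 in mock and -0.33 to 0.0139 after αCD3. *Relb* 162372_f_at ranged from -0.14 to 0.72 in mock, *Nfkbia* 101554_at from -0.13 to 0.0633 after αCD3 and *Relb* 103091_at from -0.49 to 0.20 after αCD3. A lone mouse of a genotype was assumed to vary like the others. The cause of these changes was not tested beyond the smaller number of mice. With signals near the filter of 100, *Rel*, *Bcl3*, *Traf1* and *Relb* 162372_f_at are limited by their dim signals.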
